A study of Mus musculus with 4 samples.

Results

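The genes described here are 39 regulators of splicing, the heterogeneous nuclear ribonucleoproteins (hnRNPs) other than hnRNP L itself and a set of further RNA-binding proteins that act on splice-site choice. They were taken by gene symbol from 22011 genes in the transcript tables, and each gene was represented by the transcript that held most reads over the 4 libraries. All 39 passed the filter on low counts. RNA sequencing covered fetal liver cells from 2 samples of hnRNP L knockout mice (hnRNP L -/-, here KO) and from 2 samples of wild type (WT) mice. The labels list mouse lines kept for the study, namely CD45.1, the reporter line Gt(ROSA)26Sortm4(ACTB-tdTomato,-EGFP)Luo, LckCre transgenic and C57BL/6 mice, but tie none of them to a library, and they give neither the kind of deletion, nor the Cre, the embryonic day or the litter of these samples. The 4 libraries were run on 2 slides, without a label for the slide of each library, and effects of the slide and of genotype cannot be told apart. Separate animals are not named either, so a p-value here reflects only how far the 4 libraries vary. The 2 KO libraries differed in sex by their marker genes, given below with Mbnl3, and so are not repeats of the same sample. For the 2 WT libraries the labels leave this open, and their variation may be technical.

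hnRNPs coat the nascent transcript and favour or block the use of nearby splice sites, often as antagonists of the serine- and arginine-rich (SR) proteins. Many of these regulators also bind their own transcripts and those of their paralogs and set their own level through alternative exons. The fetal liver makes most blood cells before the bone marrow takes over, and it holds red cell precursors beside hepatocytes.

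The KO libraries held 97490949 and 96260423 mapped reads and the WT libraries 70020061 and 111324295. The targeted gene Hnrnpl had 280 and 269 counts per 1000000 reads (CPM) in KO, against 460 and 603 CPM in WT, a ratio of 0.516 (edgeR quasi-likelihood test, Benjamini-Hochberg adjusted p = 0.0114). Where on the transcript the remaining KO reads lie was not given by these counts. As a check of the labelled tissue, no hepatocyte or erythroid marker was at 0 in any library. The summed level of 9 erythroid markers was 17717 to 23773 CPM in KO and 36098 to 39741 CPM in WT, and 7 of the 9 passed the test as lower. The summed level of 10 hepatocyte markers was 60493 to 72762 CPM in KO and 35091 to 49713 CPM in WT, with 3 of 10 called higher. The summed level of 8 genes of cycling cells was 5375 to 6642 CPM in KO and 9625 to 9911 CPM in WT, with 5 of 8 called lower. Heart muscle markers summed to 3.72 and 6.34 CPM in KO, where 1 of the 8 was at 0 in replicate 1, and to 56.6 and 271 CPM in WT. All 8 were called lower. Of 8 markers each, 6 megakaryocyte, 4 granulocyte and 4 endothelial ones were called higher and 2 macrophage ones lower. Markers of 1 list did not all move alike. The granulocyte genes Prtn3 and Ctsg had negative log2 fold changes of KO over WT (-0.33 and -0.50). The macrophage gene Vcam1 had a positive one (0.24), and none of these was called. Of all 15028 genes tested, 11.4% were called higher and 9.44% lower. The part of these marker differences in the results below was not tested.

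The 39 genes differed little in level, and mostly in 1 direction. The log2 fold change of KO over WT was negative in 33 members and positive in 6, with a median of -0.22 over the members and 0.02 over all 15028 genes tested, of which 48.7% were negative. It lay between -0.58 for Raly and 0.36 for Srrm2. Both KO libraries were below both WT libraries in 25 members, or 64.1% of them, against 31.7% of all genes. They were above both WT libraries in 4 members, against 33.5% of all genes, and the libraries overlapped in the other 10. At an adjusted p of 0.05, 4 members were called in either direction, or 10.3%, against 20.8% of all genes. All 4 were lower in KO, and the share of all genes called lower was 9.44%. No member was called higher in KO with edgeR, DESeq2 or limma voom, against 11.4% of all genes with edgeR. In edgeR 15 members had an unadjusted p under 0.05. The share of all genes under this unadjusted p was not counted, and is at least the 20.8% called. No excess is read from this count or from those by type below. Which members were called depended on single libraries. The number of calls over all genes fell too when 1 library was left out, as given in the closing section. With 1 library left out, the median log2 fold change of the members was -0.23 without WT replicate 1 and -0.20 without WT replicate 2. It was -0.20 without KO replicate 1 and -0.27 without KO replicate 2. In RNA from whole tissue, fewer cells of a type and less RNA per cell cannot be told apart.

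**Figure D1:**
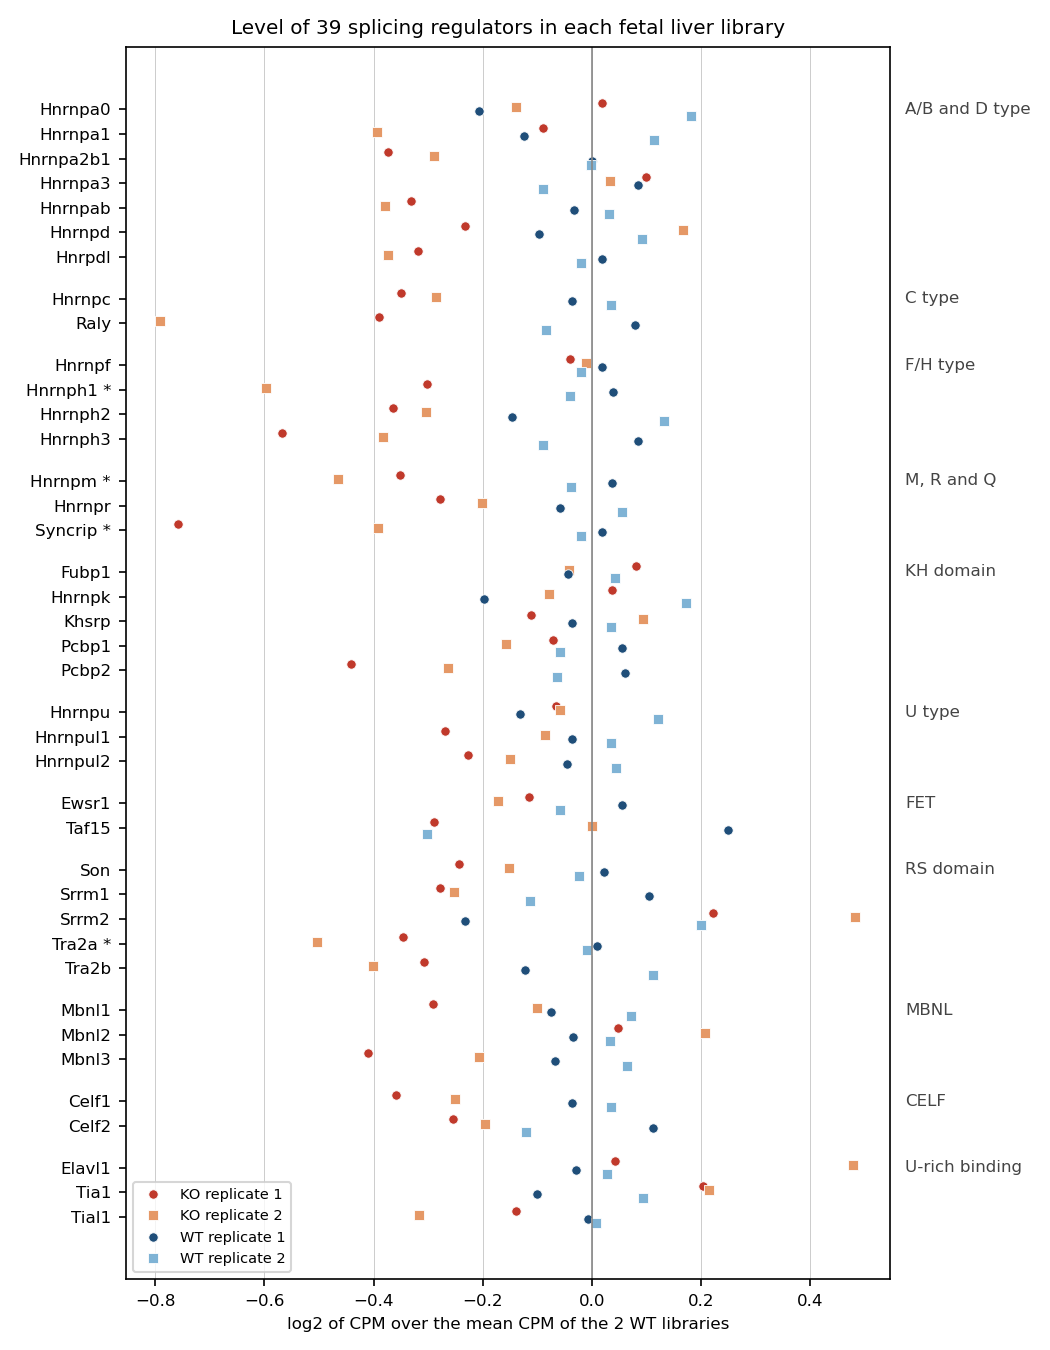
Level of each of the 39 members in each library, as the log2 of its CPM over the mean CPM of the 2 WT libraries, with KO libraries in red and orange and WT libraries in blue. Stars mark the 4 members called lower in KO (Hnrnph1, Hnrnpm, Syncrip and Tra2a), and both KO points lie left of both WT points in 25 of the 39 rows.

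The summed RPKM (the authors' reads per transcript, scaled by its length and by the mapped reads) of the 39 members was 1061 and 1125 in KO, against 1154 and 1290 in WT. Raly was highest, with 156 and 128 RPKM in KO, against 203 and 197 RPKM in WT. Hnrnpab had 132 and 139 RPKM in KO and 153 and 173 RPKM in WT. Both genes held the first places in either genotype, and their KO values overlapped. Hnrnpu, the scaffold-attachment hnRNP, came next with 120.0 and 131 RPKM in KO and 108 and 139 RPKM in WT. Its values were below those of Hnrnpab within each genotype. At the low end stood Hnrnpa1 with 1.58 and 1.39 RPKM in KO and 1.45 and 1.85 RPKM in WT. Hnrnpa3 had 2.69 and 2.79 RPKM in KO and 2.50 and 2.40 RPKM in WT, and Hnrnph3 had 1.81 and 2.23 RPKM in KO and 2.67 and 2.56 RPKM in WT. The low Hnrnpa1 and Hnrnpa3 values are uncertain, since the authors left out reads mapped with a quality under 10 and both genes have near-identical processed copies in the genome. Whether that filter lowered them was not tested.

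**Figure D2:**
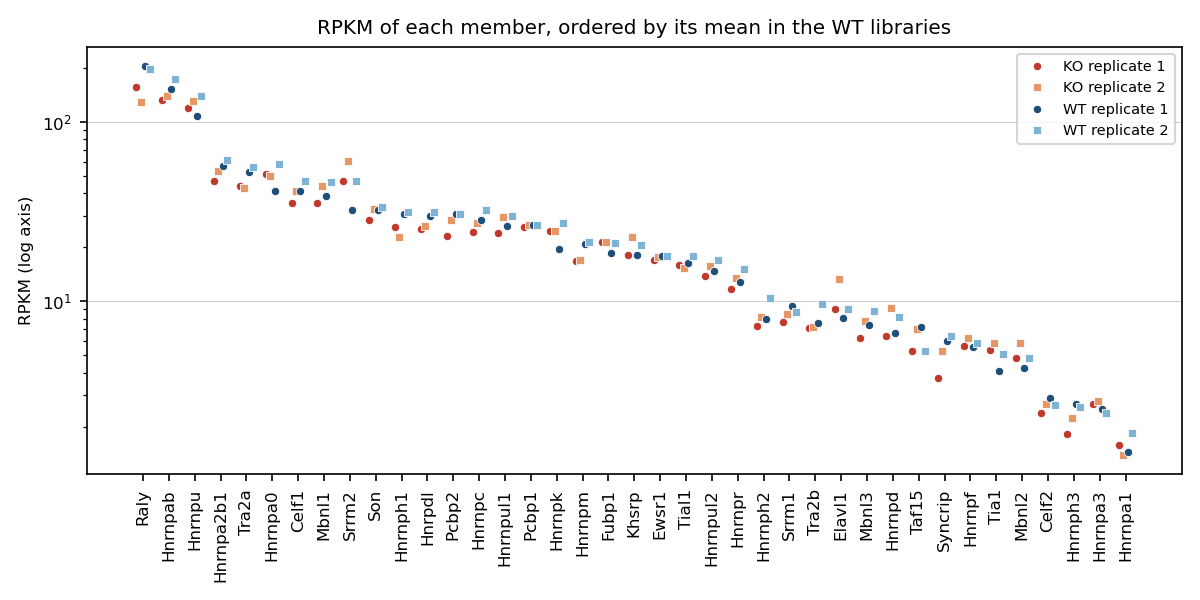
RPKM of each member on a log axis, 1 point per library, in the order of the mean WT level. Raly, Hnrnpab and Hnrnpu lie above 100 RPKM in every library, and Hnrnpa1 lies under 2 RPKM in every library.

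Among the A/B and D type proteins, which carry paired RNA recognition motifs and a glycine-rich tail, none of 7 passed the test in edgeR, where 3 had an unadjusted p under 0.05. The same 3, Hnrnpab, Hnrpdl and Hnrnpa2b1, were called lower by DESeq2. Hnrnpab had 687 and 664 CPM in KO and 845 and 883 CPM in WT (log2 fold change -0.36 ± 0.14 SE, edgeR adjusted p = 0.110). Hnrpdl, a paralog of Hnrnpd, had 141 and 136 CPM in KO and 178 and 174 CPM in WT (-0.34 ± 0.11, adjusted p = 0.0570). In both genes the KO libraries lay below both WT libraries, but the adjusted p missed 0.05. Hnrnpa2b1 was below WT in both KO libraries too, at 387 and 410.1 CPM in KO against 502 and 501 CPM in WT (adjusted p = 0.106). Hnrnpa1, the best-known repressor of the family, had 6.18 and 5.01 CPM in KO and 6.04 and 7.13 CPM in WT, and Hnrnpa3 had 28.7 and 27.4 CPM in KO and 28.4 and 25.1 CPM in WT. Their libraries overlapped, as did those of Hnrnpa0 and Hnrnpd, whose adjusted p were 0.821 and 0.940.

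The C type proteins bind uridine tracts of introns. Raly, the paralog of Hnrnpc, had 571 and 433 CPM in KO and 791 and 707 CPM in WT. KO replicate 2 was the lowest library, and both KO libraries lay below both WT libraries, with the most negative fold change of all members (log2 -0.58 ± 0.17 SE, edgeR adjusted p = 0.0538). Without KO replicate 1 Raly passed the test (adjusted p = 0.0228), and DESeq2 and limma voom called it lower. Hnrnpc had 140.0 and 146 CPM in KO and 174 and 183 CPM in WT, also without overlap (adjusted p = 0.0754).

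The F/H type proteins bind runs of guanines. Hnrnph1 fell in KO, with 117 and 95.4 CPM in KO and 148 and 140.5 CPM in WT, a ratio of 0.736 (log2 -0.44 ± 0.13 SE, edgeR adjusted p = 0.0481). Hnrnph3 had 8.0 and 9.09 CPM in KO and 12.6 and 11.1 CPM in WT (-0.47 ± 0.17, adjusted p = 0.0840). The X-linked Hnrnph2 had 35.0 and 36.5 CPM in KO and 40.7 and 49.4 CPM in WT (-0.34 ± 0.13, adjusted p = 0.104). All 3 genes were lower in both KO libraries, and only Hnrnph1 passed. Hnrnpf, the fourth of the type, lay between 29.2 and 30.4 CPM in the 4 libraries (adjusted p = 0.895). The call of Hnrnph1 was lost without KO replicate 2 (adjusted p = 0.200), without WT replicate 1 (0.149), without WT replicate 2 (0.108) and with reads summed over the transcripts of a gene (0.0511).

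hnRNP M, hnRNP R and hnRNP Q (gene Syncrip) carry several RNA recognition motifs, and 2 of these 3 genes fell. Syncrip had 50.2 and 64.7 CPM in KO and 85.9 and 83.7 CPM in WT. KO replicate 1 was the lowest library, and the ratio of 0.677 was the largest change of a called member (log2 -0.56 ± 0.14 SE, edgeR adjusted p = 0.0298). Hnrnpm had 87.0 and 80.4 CPM in KO and 114 and 108 CPM in WT, a ratio of 0.754 (-0.41 ± 0.11, adjusted p = 0.0352). Hnrnpr had 64.1 and 67.6 CPM in KO and 74.6 and 80.8 CPM in WT, without overlap, and did not pass (adjusted p = 0.145). The call of Syncrip was lost without KO replicate 1 (adjusted p = 0.0854), without WT replicate 1 (0.0833) and without WT replicate 2 (0.0775). That of Hnrnpm was lost without any 1 of the 4 libraries, with adjusted p between 0.0545 and 0.145.

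The KH domain proteins bind single-stranded cytosine- or uridine-rich RNA, and none of 5 passed in edgeR. Only Pcbp2 had an unadjusted p under 0.05 there, and DESeq2 called it lower. Pcbp2 (hnRNP E2) had 135 and 153 CPM in KO and 191 and 176 CPM in WT (log2 -0.35 ± 0.12 SE, edgeR adjusted p = 0.0755). Hnrnpk had 98.8 and 91.2 CPM in KO and 83.9 and 109 CPM in WT, and its libraries overlapped, as did those of Khsrp and Fubp1. Pcbp1 (hnRNP E1) was lower in both KO libraries by a small margin, at 87.9 and 82.8 CPM in KO and 96.0 and 88.7 CPM in WT (adjusted p = 0.474). The U type proteins, large nuclear hnRNPs, did not pass either. Hnrnpu had 897 and 901 CPM in KO and 856 and 1020.0 CPM in WT, with both KO values inside the WT range, and the adjusted p of its paralogs Hnrnpul1 and Hnrnpul2 were 0.316 and 0.260. Of the FET proteins, which also act in transcription, Taf15 (adjusted p = 0.663) and Ewsr1 (0.360) were not called.

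Of the 5 members with arginine- and serine-rich domains, 1 passed the test. Tra2a, one of the transformer-2 activators of exon inclusion, fell, with 163 and 146 CPM in KO and 208 and 206 CPM in WT, a ratio of 0.746 (log2 -0.42 ± 0.12 SE, edgeR adjusted p = 0.0397). Its call was lost without KO replicate 2 (adjusted p = 0.158), without WT replicate 1 (0.130) and without WT replicate 2 (0.129). Its paralog Tra2b had 30.8 and 28.9 CPM in KO and 35.1 and 41.3 CPM in WT (-0.36 ± 0.13, adjusted p = 0.0855). Both transformer-2 genes were lower in both KO libraries. Srrm2, a large spliceosome-associated protein of nuclear speckles, had 820 and 982 CPM in KO and 598 and 807 CPM in WT, the most positive value of all members (0.36 ± 0.19, adjusted p = 0.211). KO replicate 1 lay just above WT replicate 2. Without WT replicate 1 the log2 fold change of Srrm2 was 0.16, under the 0.25 of Elavl1, and without WT replicate 2 it was 0.59, with no call in either. From known junction reads Srrm2 was called higher without KO replicate 1 (adjusted p = 0.0104) and without WT replicate 2 (0.0266), but not with all 4 libraries (0.0561). Srrm1 and Son, 2 further speckle proteins, were lower in both KO libraries and had adjusted p of 0.140 and 0.324.

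No muscleblind, CELF or U-rich binding protein passed the gene test in edgeR, DESeq2 or limma voom, and Mbnl3 and Celf1 had an unadjusted p under 0.05 in edgeR. The X-linked Mbnl3 had 110 and 126 CPM in KO and 139 and 152 CPM in WT (log2 -0.31 ± 0.12 SE, edgeR adjusted p = 0.108). The 4 Y-linked marker genes measured lay between 33.8 and 55.4 CPM in KO replicate 2. They were at 0.54 CPM or less in each of the other libraries. The sex marker Xist had 952 and 6.55 CPM in KO and 975 and 929 CPM in WT. Sex thus differed between the KO libraries and was not balanced between the genotypes. The part of sex in the values of the X-linked Mbnl3 and Hnrnph2, or of any other member, was not tested. Mbnl1 had 403 and 460 CPM in KO and 468 and 518 CPM in WT (adjusted p = 0.361), Celf1 had 166 and 179 CPM in KO and 208 and 219 CPM in WT (0.0962), and Mbnl2 and Celf2 had adjusted p of 0.445 and 0.219. Among the binders of uridine-rich elements, Tia1 had 49.1 and 49.4 CPM in KO and 39.7 and 45.5 CPM in WT (adjusted p = 0.232). Its paralog Tial1 had 139 and 123 CPM in KO and 153 and 154 CPM in WT (adjusted p = 0.190). The KO libraries lay above WT for Tia1 and below WT for Tial1, and neither difference passed the test.

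Reads across known splice junctions, summed per gene, gave a second count from the same libraries for 37 members, since Hnrnpa0 and Pcbp1 had no junction reads. Whether these reads are also among the transcript reads is not known, so the counts are not independent. This measure was chosen after the data were seen. Its fold change had the sign of the transcript fold change in 32 of 37 members, with a median of -0.15 over the members and 0.02 over all genes. No member was called lower with it, against 4.40% of 11247 genes, and 1 member, Elavl1, was called higher, against 6.19%. Elavl1 encodes HuR, which binds uridine-rich elements and stabilises messenger RNAs, and it is singled out here after its values were seen. It had 59.3 and 84.1 known junction reads per 1000000 in KO and 40.4 and 35.2 in WT, so both KO libraries were above both WT libraries (log2 fold change 0.84 ± 0.19 SE, edgeR adjusted p = 0.0137). Its transcript count gave 111 and 149.9 CPM in KO and 105 and 109.7 CPM in WT, also without overlap but with a smaller difference (0.28 ± 0.15, adjusted p = 0.223). That transcript value rested on KO replicate 2, at 0.043 without it and at 0.47 with a call without KO replicate 1 (adjusted p = 0.0476). The junction call was lost without KO replicate 2 (adjusted p = 0.0927). Of its 5 junctions, the one nearest the 5′ end held 228 and 283 reads in KO, against 101 and 111 in WT. No junction of the gene was called for use relative to the others (diffSpliceDGE, smallest unadjusted p = 0.272). Standard errors of 0.35 to 0.67 on the log2 scale leave room for shifts that the test would miss.

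**Figure D3:**
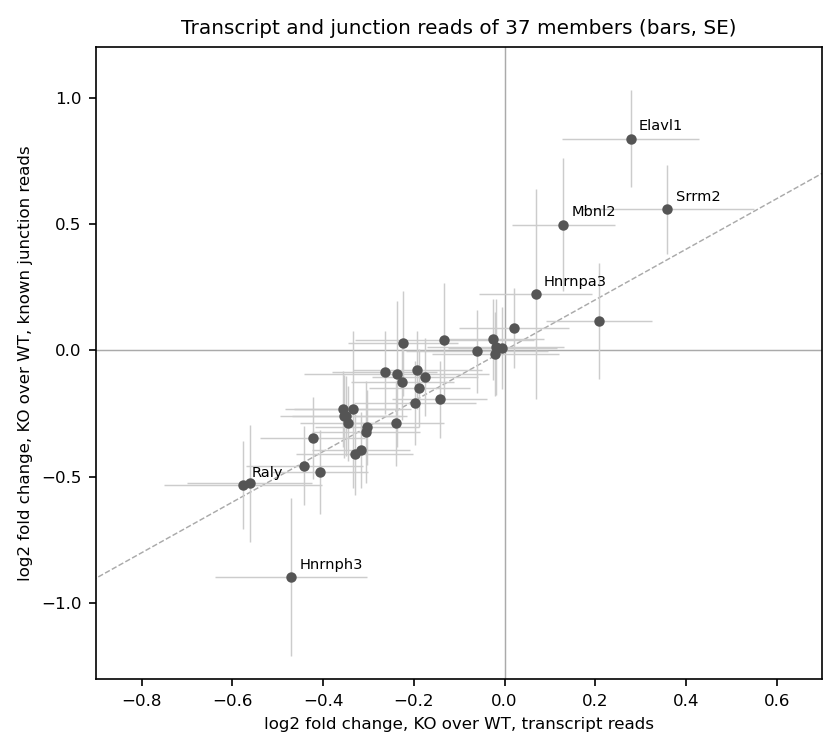
Log2 fold change of KO over WT from known junction reads (vertical) against that from transcript reads (horizontal) for the 37 members with junctions, with standard errors as bars and equality as a dashed line. Elavl1 lies at 0.84 on the junction axis and 0.28 on the transcript axis.

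For the typical member, known junction reads came to 15.8% of the transcript reads. Hnrnpk departed from this, with 4851 and 5315 junction reads in KO and 3047 and 6495 in WT, against 4729 and 4675 transcript reads in KO and 2711 and 6030 in WT. The labels do not say how junction reads were counted, and why junction reads exceeded transcript reads in all 4 libraries was not tested. Tra2b, at 79.4%, was next. In either count the Hnrnpk fold change was near 0 (log2 -0.02 from transcripts and -0.01 from junctions).

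The members' transcripts held 630 junctions with a read, 419 marked as known in the files and 211 as putative. Putative junctions took 0.755% and 0.798% of the members' junction reads in KO, against 0.693% and 0.623% in WT. Over all genes, putative reads numbered 48024 and 44924 in KO and 152103 and 62959 in WT. Known reads numbered 7150406 and 6941562 in KO and 4875332 and 8624429 in WT. The putative share over all genes was thus lower in both KO libraries than in both WT libraries, the reverse of the members. WT replicate 1 held by far the most putative reads. For 421 of the members' junctions, use was tested against the rest of the same gene's junctions. None passed an adjusted p of 0.05, against 0.00379% of all 105454 junctions tested, and with the junctions combined per gene (Simes) none of 37 members passed, against 0.028% of all genes. At an unadjusted p under 0.05 there were 7, or 1.66% of those tested, against 2.46% of all junctions. Junction choice was therefore described by its reads and percents. Of 281 junctions that shared a donor or acceptor with another, in 35 genes, the KO libraries were above WT in 28, below WT in 32 and overlapped in 221. These are 9.96% above and 11.4% below, against 8.87% and 7.41% of the 48426 such junctions of all genes, and the median absolute difference between the group means was 1.43 percentage points.

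The smallest p of any member junction (6.08e-05, adjusted p = 0.712) belonged to Mbnl1, which encodes a muscleblind protein that controls developmental switches of alternative exons and is itself alternatively spliced. The junction runs past a 36-nt and a 95-nt exon, and was picked for this p after the values were seen. Both exons are coding in GENCODE, and lie at chr3:60621423-60621458 and chr3:60622146-60622240 on the plus strand of GRCm38. They are printed from the GENCODE transcripts because the junctions below differ in whether they include them, with the exon in capitals and 15 bases of each neighbouring exon in lower case.
Mbnl1 36-nt exon: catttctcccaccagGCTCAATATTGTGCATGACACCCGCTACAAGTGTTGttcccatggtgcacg
Mbnl1 95-nt exon: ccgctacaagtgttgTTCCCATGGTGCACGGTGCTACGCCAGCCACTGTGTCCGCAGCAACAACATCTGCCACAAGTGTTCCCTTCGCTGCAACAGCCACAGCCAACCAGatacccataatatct
Read from the donor before the 36-nt exon, the junction past both exons took 72 of 366 and 108 of 523 reads in KO and 18 of 248 and 28 of 419 reads in WT. These shares were 19.7% (95% Wilson interval 15.9 to 24.1) and 20.7% (17.4 to 24.3) in KO, against 7.26% (4.64 to 11.2) and 6.68% (4.66 to 9.49) in WT. Both KO libraries lay above both WT libraries and their intervals were apart, but intervals cover counting error only. The separation comes from the same reads for which the junction was picked, and adds no support. The junction from the same donor into the 36-nt exon took 70.2% and 65.8% in KO, against 79.0% and 85.4% in WT. The remaining route, into the 95-nt exon, took 10.1% and 13.6% in KO and 13.7% and 7.88% in WT, and its libraries overlapped. Relative to the whole gene, use of the double-skipping junction was 1.83 ± 0.43 (SE) higher in KO on the log2 scale, and 1.65 to 1.97 when 1 library was left out, never past the adjusted threshold. The files mark this junction as putative, and its span equals an annotated Mbnl1 intron of GENCODE. The file coordinates, whose build the labels do not name, are chr3:60419695-60429046.

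**Figure D4:**
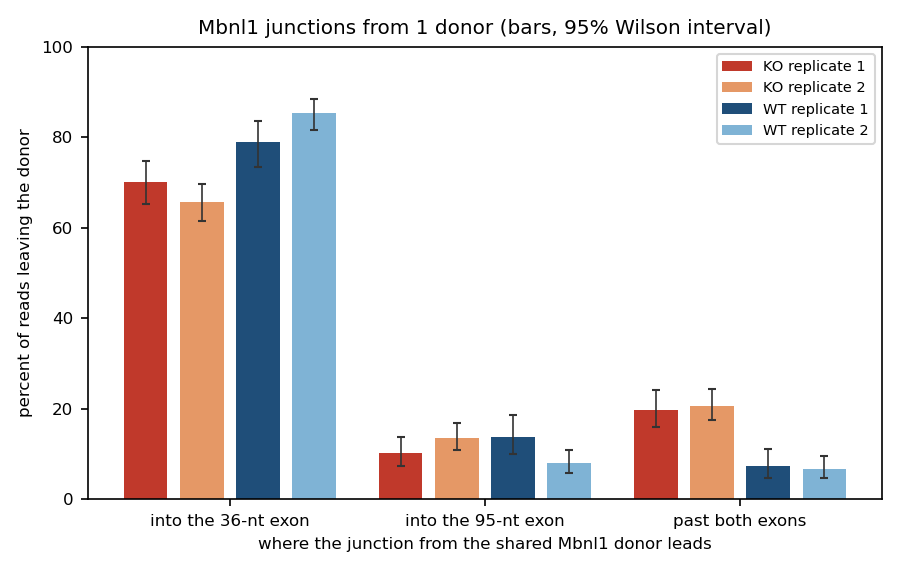
Share of the reads leaving 1 Mbnl1 donor that lead into the 36-nt exon, into the 95-nt exon or past both, for each library, with 95% Wilson intervals as bars. The KO libraries are at 19.7% and 20.7% for the junction past both exons, and the WT libraries at 7.26% and 6.68%.

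Other Mbnl1 junctions varied widely between libraries of 1 genotype. Reads leaving the 36-nt exon went on to the 95-nt exon in 32.3% and 63.1% of cases in KO and 62.5% and 69.1% in WT, from as few as 16 reads in WT replicate 1. At the 5′ end, 22.0% and 50.0% of the reads of 1 donor in KO, and 10.3% and 21.8% in WT, led to a 1049-nt exon, and the rest passed over it. The lower KO library and the higher WT library were almost level at the 5′ end.

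Exon skipping was measured at 26 places in 16 members, 23 of them with 1 exon between the flanking junctions. Skipping is given as the reads of the skipping junction as a percent of these plus the mean of the reads entering and leaving the exon. The 2 flanking junctions of an exon differed in reads by a median of 2.71-fold and by up to 85.5-fold, so these percents compare libraries and are not inclusion rates. The KO libraries were above WT at 5 places, below WT at 6 and overlapped at 15. These are 19.2% above and 23.1% below, against 18.5% and 18.1% of the 1255 such places in all genes, and no skipping junction passed the usage test. These 23 places hold 22 different exons, since 1 Raly exon has 2 skipping junctions, and 13 of the 22 had a length divisible by 3.

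A further 4 coding exons of KH and A/B type members are shown, chosen after their values were seen: 3 where both KO libraries skipped less than both WT libraries, and the Hnrnpab exon as one whose skipping was alike in all libraries. They lie at chr15:102485948-102486040 and chr15:102488776-102488814 (Pcbp2, plus strand), chr13:58396188-58396259 (Hnrnpk, minus strand) and chr11:51601750-51601890 (Hnrnpab, minus strand) of GRCm38, and capitals again mark the exon.
Pcbp2 93-nt exon: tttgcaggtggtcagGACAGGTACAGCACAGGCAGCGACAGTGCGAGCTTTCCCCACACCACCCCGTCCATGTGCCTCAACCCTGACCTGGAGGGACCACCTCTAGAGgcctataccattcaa
Pcbp2 39-nt exon: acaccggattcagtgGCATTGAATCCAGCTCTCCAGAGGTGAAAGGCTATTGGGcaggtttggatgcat
Hnrnpk 72-nt exon: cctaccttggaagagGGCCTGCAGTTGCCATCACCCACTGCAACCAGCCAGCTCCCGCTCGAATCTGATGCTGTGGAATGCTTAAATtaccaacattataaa
Hnrnpab 141-nt exon: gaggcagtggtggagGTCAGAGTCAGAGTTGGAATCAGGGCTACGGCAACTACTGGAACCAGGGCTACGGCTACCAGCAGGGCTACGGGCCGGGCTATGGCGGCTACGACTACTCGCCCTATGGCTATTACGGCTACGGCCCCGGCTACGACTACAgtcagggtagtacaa
All 4 lengths are divisible by 3. The 93-nt exon of Pcbp2 was skipped at 52.9% and 45.7% in KO and 59.8% and 62.2% in WT, from 158 and 156 skipping reads in KO and 167 and 243 in WT. Read from the donor alone, KO replicate 1 and WT replicate 2 were level at 70.2%. The 39-nt exon of Pcbp2 was skipped at 14.6% and 6.67% in KO and 21.4% and 19.1% in WT, from 16 and 9 skipping reads in KO and 23 and 35 in WT. At both Pcbp2 exons the KO libraries lay below both WT libraries, and the unadjusted p of the skipping junctions were 0.381 and 0.0754. Read from the donor alone, the 39-nt exon was skipped by 26.2% (95% Wilson interval 16.8 to 38.4) and 6.21% (3.30 to 11.4) in KO and by 29.9% (20.8 to 40.8) and 28.0% (20.9 to 36.4) in WT, so that only KO replicate 2 stood apart. The 72-nt exon of Hnrnpk was skipped at 4.03% and 4.14% in KO and 10.7% and 7.19% in WT (unadjusted p = 0.0590). Of the reads at its donor, 3.07% (95% Wilson interval 1.87 to 5.01) and 3.88% (2.52 to 5.91) skipped it in KO, against 8.81% (6.21 to 12.4) and 6.53% (4.73 to 8.95) in WT, and the intervals of both KO libraries overlapped that of WT replicate 2. The 141-nt exon of Hnrnpab was skipped at 52.8% and 52.5% in KO and 55.2% and 50.6% in WT, from 365 to 516 skipping reads a library. With that depth its difference between genotypes was smaller than the spread between the WT libraries.

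**Figure D5:**
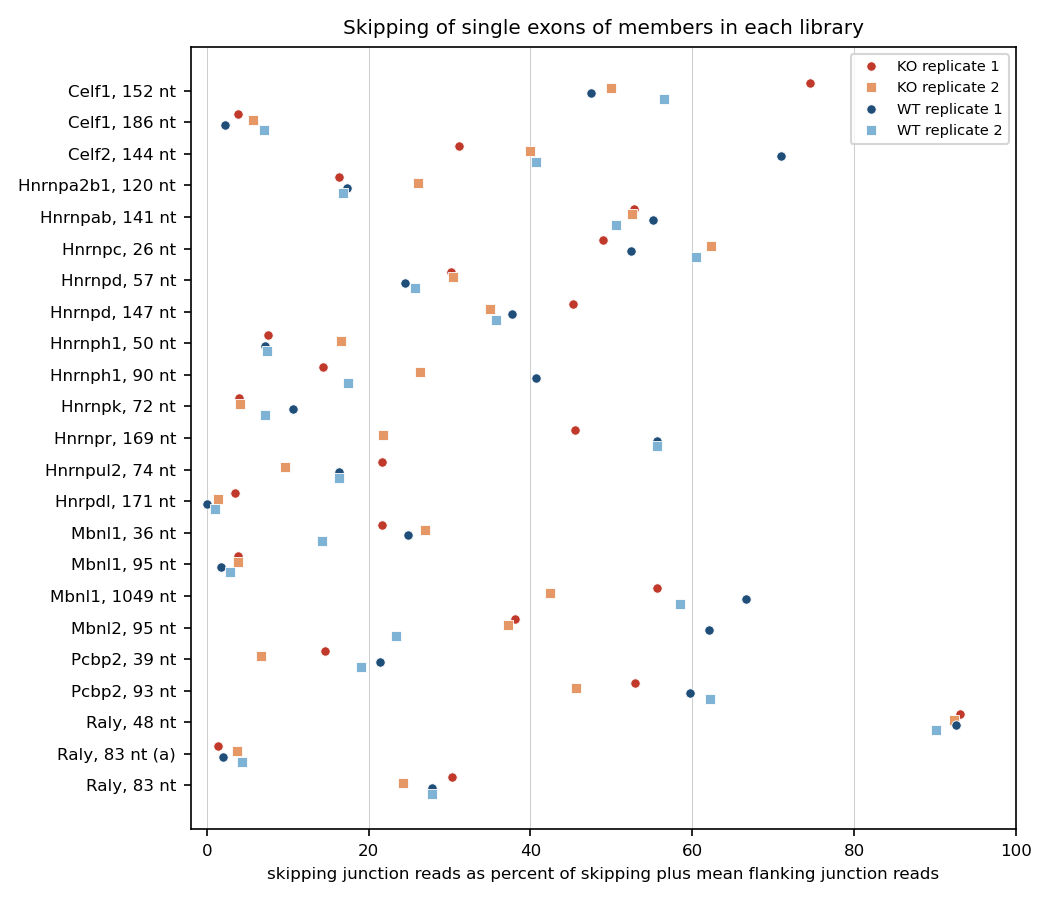
Skipping at the 23 places with 1 skipped exon (22 exons), 1 point per library, with KO points above WT points in each row. By this measure Pcbp2 shows KO libraries at lower skipping than WT at both exons. Read from the donor alone, KO replicate 1 was level with WT replicate 2 at the Pcbp2 93-nt exon. At the 39-nt exon its interval overlapped those of both WT libraries. Hnrnpab shows all 4 libraries between 50.6% and 55.2%, and the row marked (a) is a second skipping junction over the same Raly exon.

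The largest differences in percent use fell on junctions with few reads. In Celf2, which encodes an antagonist of muscleblind proteins, reads entering 1 acceptor came from the exon before it in 25 of 32 and 16 of 24 cases in KO and 4 of 15 and 17 of 28 in WT. The skipping of this 144-nt exon was 31.1% and 40.0% in KO and 71.0% and 40.7% in WT, and KO replicate 2 and WT replicate 2 were almost level. In Hnrnpr, a 169-nt exon was skipped at 45.5% and 21.7% in KO and 55.7% and 55.6% in WT, from 25 and 10 skipping reads in KO and 22 and 42 in WT (unadjusted p = 0.223). The junction that leaves this exon took 35.9% and 71.4% of the reads at its acceptor in KO and 37.1% and 33.3% in WT, which overlapped. In Celf1, reads past a 152-nt exon near the 5′ end made up 91.1% and 65.8% at the acceptor in KO and 58.5% and 69.3% in WT, and those leaving the exon made up 8.89% and 34.2% in KO and 41.5% and 30.7% in WT. These overlapped too. An Srrm1 junction took all reads of its site in KO replicate 1 and 92.9% in KO replicate 2, against 50.0% in WT replicate 1 and all in WT replicate 2. A Tia1 junction took all reads in KO replicate 1 and 87.5% in KO replicate 2, against 50.0% in WT replicate 1 and all in WT replicate 2. Either site had only 2 reads in WT replicate 1. A Taf15 junction took 70.0% in KO replicate 1, and all reads in KO replicate 2 and in both WT libraries. In Hnrnpa2b1, 1 putative junction took 50.0% and 27.3% in KO and 36.4% and 11.9% in WT, from 9 reads or fewer.

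The rest of the single exons showed smaller or overlapping differences. Hnrnpd (AUF1) makes several protein isoforms by including or skipping a 57-nt and a 147-nt exon. Its 57-nt exon was skipped at 30.2% and 30.5% in KO and 24.5% and 25.7% in WT, with KO above WT and no call (unadjusted p = 0.239). Skipping reads were 30 and 57 in KO and 18 and 31 in WT. The flanking junction on 1 side of this exon held only 4 and 18 reads in KO and 0 and 7 in WT. On the other side there were 135 and 242 reads in KO and 111 and 172 in WT, so these percents rest mostly on 1 flank. At the 147-nt exon the values of 45.3% and 34.9% in KO and 37.7% and 35.7% in WT overlapped. A 50-nt exon of Hnrnph1 was skipped at 7.50% and 16.6% in KO and 7.19% and 7.48% in WT, so that only KO replicate 2 stood apart. A 171-nt exon of Hnrpdl was skipped at 3.46% or less in every library, with KO above WT (unadjusted p = 0.0416). This rested on 15 and 7 skipping reads in KO and 0 and 6 in WT. The skipping junction is putative, and its span equals no annotated intron of the gene in GENCODE. Raly was steady in exon choice. Its 48-nt exon was skipped at 93.0% and 92.3% in KO and 92.6% and 90.1% in WT, and its 83-nt exon at 30.3% and 24.2% in KO and 27.8% and 27.9% in WT. Both sets of Raly values overlapped between the genotypes.

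Other genes of the splicing machinery, from lists of known regulators, are set against the 9.44% of all genes called lower and the 11.4% called higher. Of 15 SR proteins, 1 was called lower in KO, Srsf10 at a ratio of 0.624, and none higher, with a median log2 fold change of -0.17. Of 7 SR protein kinases, 1 was called lower, Clk3 at 0.607, and the median was -0.06. Of 35 further RNA-binding regulators, 2 were called lower, Pspc1 and Rbm3, and 2 higher, Cirbp at 1.51 and Rbfox2 at 1.5, with a median of -0.14. In the hnRNP L and polypyrimidine tract binding family, Hnrnpl and Rod1 were called lower and Ptbp1 higher at a ratio of 1.55. The members' median of -0.22 lay below that of each of these lists, and this order was not tested.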

How the data were processed

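For each library the authors deposited a raw count of reads per RefSeq transcript. Secondary alignments and those with a mapping quality under 10 were left out, per the file headers. The same tables hold RPKM values that the authors made from the mapped reads and transcript length. A deposited coverage signal, in reads per base, was not used. A second deposited table gives raw read counts across splice junctions, marked known or putative. The labels name neither the aligner, the build, the junction counting nor the use of strand, and overlapping genes may share reads.

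Levels were tested with edgeR 4.0.16 (quasi-likelihood, TMM, filterByExpr, R 4.3.3) over 15028 genes, and junction use with diffSpliceDGE over 105454 junctions with at least 10 reads, each with Benjamini-Hochberg adjustment and a threshold of 0.05. Standard errors are the log2 fold change over the square root of F. Both tests were tested on simulated data, in which 14843 of 15043 genes were left unchanged. At gene level 94.0% of the 50 genes set to a ratio of 0.5 and 22.0% of the 50 set to 0.667 were called. For junction use, 88% of the junctions set to 0.333 and 89% of those set to 3 were called. In the libraries themselves 20.8% of genes were called, and whether these percents hold there was not tested. With 2 libraries against 2, an exact permutation test cannot go below 0.333. DESeq2 1.42.0, limma 3.58.1 and the other alternatives are given in the closing section.

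The deposited coordinates are not those of GRCm38. Junctions were matched to GENCODE M21 introns of GRCm38 by length, and 416 of 419 known junctions of members matched, with no coordinate converted. Exon sequences come from the GENCODE M21 transcripts.

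Values in every library are given for members past the threshold, the 8 others with the largest absolute log2 fold change, the 3 with the highest and the 3 with the lowest WT RPKM, and X-linked members. A rule named up to 15 alternative junctions by absolute difference in percent use, with at least 20 reads and 5 percent of a shared site in 1 library. The Mbnl1 junction past both exons was added for its p. The junctions and exons described for Elavl1, Pcbp2, Hnrnpk, Hnrnpab, Hnrnpd, Hnrnph1, Hnrpdl and Raly were not named by this rule. The same rule over all genes gave the shares set beside the members' counts. The members and lists were chosen with earlier results of these data known.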

Additional observations from a re-analysis of the deposited data

How the results depend on the processing

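With 2 libraries a group, the number of members called depended on the settings. Against 4 members called lower in KO with edgeR, DESeq2 called 9 and the fit with the replicate block 7, and no member was called higher in either fit. Over all genes and in either direction these fits called 3742 and 4341, against 3130 with edgeR. Their share of all genes called lower was not counted. Known junction reads gave 0 lower and 1 higher. When 1 library was left out, 0 to 3 members were called lower and 0 to 1 higher from transcript reads, and 0 to 2 lower and 0 to 2 higher from junction reads. Leaving out a library leaves 1 sample in an arm, which is then assumed to vary like the other group. RLE size factors, limma voom, no filter on low counts and the sum over transcripts gave 3 to 5 lower and none higher. Over all genes and in either direction these fits called 3160, 3099, 4342 and 3009, in that order. The block pairs the KO and WT files that share a number in their names. Deviations of such files from their group means correlated at 0.136, no label explains the number, and the block is a hint from the files only.

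The median log2 fold change of the members stayed negative, between -0.27 and -0.20 with transcript reads. It was -0.15 with known junction reads, and lay between -0.19 and -0.11 with these and 1 library left out (-0.16 without KO replicate 1). Over all genes, known junction reads called 1191. With 1 library left out, 1022 to 2492 were called from transcript reads and 828 to 1303 from junction reads (1193 without WT replicate 2 and 1074 without KO replicate 1). No member junction was called under any alternative run.

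Direction reversed in 8 of the 39 members when 1 library was left out from the transcript reads, namely Fubp1, Hnrnpa0, Hnrnpa3, Hnrnpd, Hnrnpk, Hnrnpu, Khsrp and Taf15. With 1 library left out, Hnrnpu lay between -0.184 and 0.0711 and Hnrnpa3 between -0.017 and 0.155 (log2), and both reversed without WT replicate 2. From junction reads without WT replicate 2 and without KO replicate 1, Hnrnph2 was at 0.0195 and 0.0758 and Hnrnpu at 0.0523 and 0.0209. Without KO replicate 2, Hnrnpa1 was at 0.23 from junction reads. For junction use, the Mbnl1 junction between the 36-nt and 95-nt exons turned to -0.0212 and the Celf1 junction past the 152-nt exon to -0.0424 under the block. With 1 library left out these ranged over -1.12 to 0.80 and -0.51 to 0.42, the Srrm1 junction (0.70 with all libraries) over -0.17 to 3.62, the Hnrnpr junction leaving the 169-nt exon over -0.0374 to 0.63 and the Taf15 junction (-0.81 with all libraries) over -1.35 to 0.12. The cause was not tested in any of these. Many alternative sites held few reads, which limits their precision.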
